A study of Mus musculus with 6 samples.

Results

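The genes that encode the chains of CD3 and CD8, together with the related surface molecules CD5, CD6 and CD2, were compared between CD8+ T cells treated with the LSD1 inhibitor GSK2879552 (GSK) and cells treated with vehicle (Veh). They are 9 genes, Cd3g, Cd3d, Cd3e, Cd247, Cd8a, Cd8b1, Cd5, Cd6 and Cd2, taken by name from the 16281 genes of the deposited count table. All 9 were among the 11698 genes with enough counts to be tested. LSD1 is a histone demethylase encoded by Kdm1a, and GSK inhibits it irreversibly. The cells came from spleens of OT1 mice, strain C57BL/6 with the genotype Tg(TcraTcrb)1100Mjb, in which a transgenic T-cell receptor recognizes an ovalbumin peptide, and the series text also names lymph nodes. Both groups were activated with plate-bound anti-CD3 and soluble anti-CD28, each at 2 μg/ml, and with IL-2 at 20 ng/mL for 48 h, and were then expanded in IL-2 for 3 days. The GSK group (n = 3) received 0.5 μM GSK throughout this culture and the Veh group (n = 3) received vehicle, and RNA was taken on day 5. The animals' age is not given in the sources used here. The cells had therefore all been triggered through CD3 itself, and all carried the same transgenic receptor, which limits how far they stand for CD8+ T cells with diverse receptors or without stimulation.

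A T-cell receptor has no signaling tail of its own. It is carried to the cell surface and signals through CD3γ, CD3δ and CD3ε, which form γε and δε pairs, and through a pair of ζ chains encoded by Cd247. The tails of these chains hold the tyrosine motifs (ITAMs) that the kinase Lck phosphorylates and to which the kinase Zap70 binds. The CD8 coreceptor, on most cytotoxic T cells a dimer of CD8α and CD8β, binds MHC class I and brings Lck to the receptor. CD5 and CD6 are scavenger-receptor family molecules that tune receptor signaling, and CD2 is an adhesion molecule that in mice binds CD48.

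Each sample held between 18288447 and 19846720 counts in total, and those of the 9 genes in single samples between 1039 and 10964. Levels are given as CPM, that is, each count relative to the TMM-scaled total of its sample, with the SD over 3 samples, and log2 fold changes of GSK over Veh with their standard errors (SE). Genes were tested with edgeR's quasi-likelihood test and Benjamini-Hochberg adjustment over all 11698 genes. The median log2 fold change of all genes tested was -0.0039. GSK replicate 3 stood apart from the other GSK samples on the second principal component (-17.5, against 4.47 and 8.64). In bulk RNA, fewer cells of a type and less RNA per cell cannot be told apart, and all values are relative to the total RNA of a sample. Trac, Trbc1 and Trbc2, the constant genes of the receptor's own chains, were not analysed here.

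At an adjusted p under 0.05, 4 of the 9 genes were lower in GSK (Cd3g, Cd3e, Cd3d and Cd5) and 1 was higher (Cd2), while Cd247, Cd8a, Cd8b1 and Cd6 did not pass. Among all genes tested, 15.5% were lower, 16.6% higher and 32.1% one or the other at this threshold. None of the 9 was past a fold change of 1.5 in addition, in edgeR or in DESeq2, against 4.09% of all genes tested for lower and 2.22% for higher genes. At an unadjusted p under 0.05, 7 of the 9 differed in edgeR and likewise 7 in DESeq2. The share of all genes tested past this unadjusted threshold was not computed. It lies above the 32.1% past the adjusted one, as genes such as Cd247 and Cd8b1 pass only the unadjusted one. The count of 7 is therefore not read as a result about these genes. The GSK samples all lay below the Veh samples for 4 genes and all above them for 2, where 23.0% and 23.7% of all genes tested did so, 46.7% in either direction. The median log2 fold change of the 9 genes was -0.14. The largest difference was that of Cd5 and the next that of Cd3g. In size regardless of direction, the median log2 fold change of all genes tested was 0.165. Only Cd5, Cd3g and Cd3e differed by more than this.

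**Figure D1:**
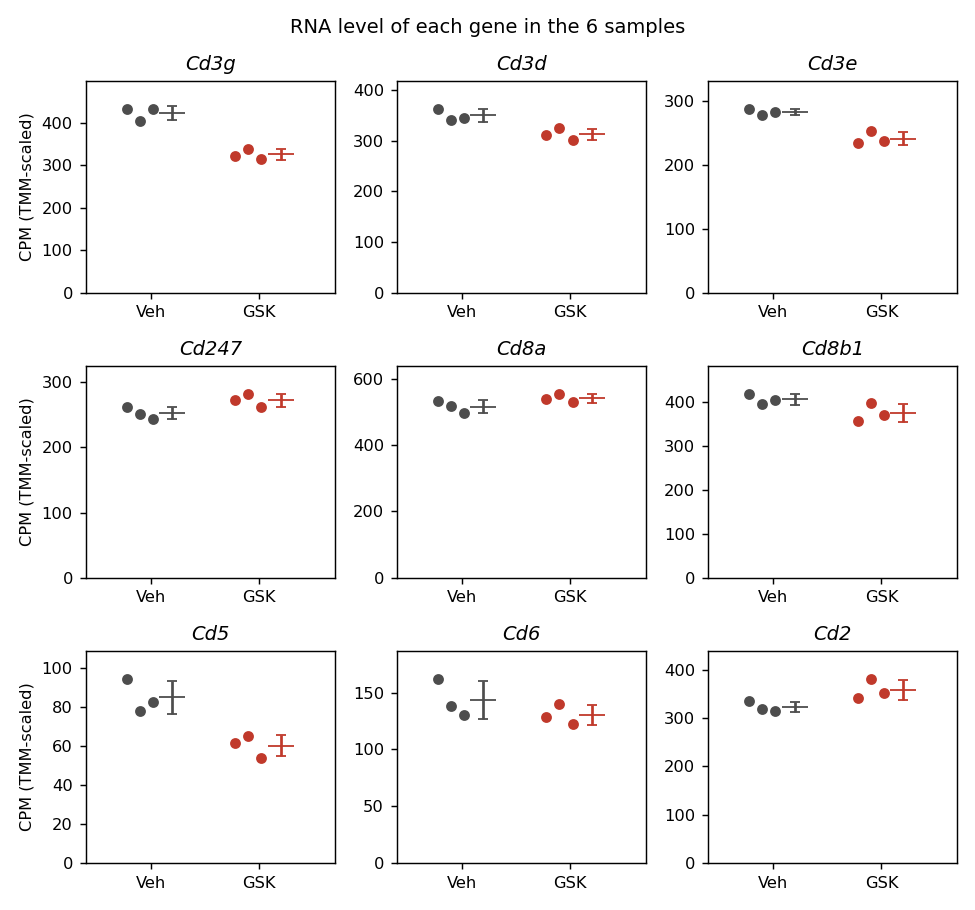
RNA level of each of the 9 genes (y axis, TMM-scaled CPM, starting at 0) in the 3 Veh samples (grey) and the 3 GSK samples (red), with the mean and SD beside the points. The GSK samples lay below all Veh samples for Cd3g, Cd3d, Cd3e and Cd5 and above them for Cd247 and Cd2. The 2 groups overlapped for Cd8a, Cd8b1 and Cd6.

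The genes of the 3 CD3 chains that pair with one another lie side by side on chromosome 9 of GRCm38, within 40092 bases. Cd3g (chr9:44969572-44980431, minus strand) and Cd3d (chr9:44981769-44987052, plus strand) face away from each other with start sites 1355 bases apart, and Cd3e (chr9:44998735-45009663, minus strand) follows after a gap of 11682 bases. No other annotated gene overlaps any of the 3. Their start regions are shown because these neighbours fell together, and that of Cd5 because it fell the most. Each runs 5′ to 3′ on the strand of its gene from 250 bases before to 50 bases after the start site (RefSeq, GRCm38.p6), and capitals mark motif matches on either strand. The motif of the ETS family was searched as AGGAAG, the E-box as CANNTG, that of TCF7 and LEF1 as CTTTGA, and that of the GATA factors as AGATAA, and no match overlapped one to another motif.
Cd3g (chr9:44980382-44980681, minus strand): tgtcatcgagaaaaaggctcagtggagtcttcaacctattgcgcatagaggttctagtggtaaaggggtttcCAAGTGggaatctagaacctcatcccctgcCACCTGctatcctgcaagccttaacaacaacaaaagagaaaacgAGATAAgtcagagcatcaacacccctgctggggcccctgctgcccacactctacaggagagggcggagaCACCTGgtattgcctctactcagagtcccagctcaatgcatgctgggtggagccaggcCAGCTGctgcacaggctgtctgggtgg
Cd3d (chr9:44981536-44981835, plus strand): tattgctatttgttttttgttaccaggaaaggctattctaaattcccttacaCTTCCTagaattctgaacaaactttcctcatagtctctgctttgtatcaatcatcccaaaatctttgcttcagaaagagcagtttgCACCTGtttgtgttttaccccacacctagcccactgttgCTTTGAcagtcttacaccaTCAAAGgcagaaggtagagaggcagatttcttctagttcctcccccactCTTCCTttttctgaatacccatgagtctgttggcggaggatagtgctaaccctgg
Cd3e (chr9:45009562-45009861, minus strand): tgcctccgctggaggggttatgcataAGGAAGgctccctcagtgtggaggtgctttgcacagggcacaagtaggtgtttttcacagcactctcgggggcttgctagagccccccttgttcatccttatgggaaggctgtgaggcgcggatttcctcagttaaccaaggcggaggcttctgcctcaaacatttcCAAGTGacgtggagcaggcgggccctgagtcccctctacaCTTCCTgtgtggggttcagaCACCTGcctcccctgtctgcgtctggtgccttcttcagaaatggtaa
Cd5 (chr19:10738925-10739224, minus strand): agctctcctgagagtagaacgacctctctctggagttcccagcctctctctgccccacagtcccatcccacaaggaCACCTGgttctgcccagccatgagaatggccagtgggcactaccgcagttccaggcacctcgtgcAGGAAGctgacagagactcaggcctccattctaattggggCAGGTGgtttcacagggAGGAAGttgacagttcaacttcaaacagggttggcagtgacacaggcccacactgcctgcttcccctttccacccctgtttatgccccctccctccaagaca

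The start regions of Cd3d, Cd3e and Cd5 each held 2 AGGAAG matches and that of Cd3g held 0, while 35.4% of all 32851 RefSeq start regions of this length held at least 1. CANNTG was found in all 4, with 4 matches for Cd3g, as in 72.3% of all start regions. CTTTGA was found 2 times for Cd3d only, a motif in 16.0% of all start regions, and AGATAA 1 time for Cd3g only (11.2%). Neither the RUNX motif TGTGGT (16.8%) nor TATAAA (13.6%) nor the GFI1 motif AAATCA (14%) had a match in these 4. These are matches of letters, not binding sites. Start regions of Cd247, around a start site inside the gene's span, and of Cd8a were searched too, and those of Cd8b1, Cd6 and Cd2 were not analysed here. Cd8a, which did not pass the test, had 0 AGGAAG matches and 3 of CANNTG, and Cd247, which did not pass either, had 2 and 2, with 1 CTTTGA. Cd8a also held 1 AAATCA.

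Cd3g, which encodes CD3γ, fell the most of the CD3 genes. It was at 433, 404 and 432 CPM in the Veh samples and at 323, 339 and 315 CPM in the GSK samples. The lowest Veh sample thus lay well above the highest GSK sample. The level went from 423 ± 16.4 CPM (SD, n = 3) to 325 ± 12.4 CPM (SD, n = 3), a log2 fold change of -0.38 (SE 0.043, adjusted p = 6.0e-05). In percent, Cd3g fell by 23.1 (95% interval -27.9 to -17.9). It stayed between -0.41 and -0.36 on the log2 scale under the 12 alternative fits, with an adjusted p of at most 0.0014.

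Cd3e, whose product CD3ε is shared by both CD3 pairs, was at 289, 279 and 284 CPM in Veh and at 235, 253 and 237 CPM in GSK. The groups did not overlap, and GSK replicate 2 was the highest of its group, as it was for all 9 genes. The log2 fold change of Cd3e was -0.23 (SE 0.043, adjusted p = 0.0015), and the gene fell by 14.8% (95% interval -20.1 to -9.18%). Cd3d, which encodes CD3δ, was at 363, 341 and 346 CPM in Veh and at 312, 324 and 301 CPM in GSK. These groups also did not overlap, though the nearest samples of the 2 groups, 341 and 324 CPM, were close. Cd3d fell by 10.7% (95% interval -16.3 to -4.79%), a log2 fold change of -0.16 (SE 0.043, adjusted p = 0.011). Without Veh replicate 1, Cd3d missed the threshold (log2 change -0.14, adjusted p = 0.063).

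Cd247, the gene of the ζ chain, lies apart from these on chromosome 1 (chr1:165779952-165871153, plus strand), where Pou2f1 and 2 predicted or small RNA genes overlap it, so reads there may be shared if the counting ignored strand. It was at 263, 252 and 244 CPM in Veh and at 272, 282 and 263 CPM in GSK. All GSK samples lay above all Veh samples, but the lowest GSK and the highest Veh sample differed by less than 1 CPM. The log2 fold change was 0.11 (SE 0.045, adjusted p = 0.081), which did not pass in the main fit or in any of the 12 alternatives. The 95% interval ran from 0.81 to 15.2%, so a fall of the size seen for Cd3d lay outside it. Like all intervals here, it is for a single gene and not adjusted over all genes. It can therefore lie wholly above no change although the adjusted p did not pass.

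**Figure D2:**
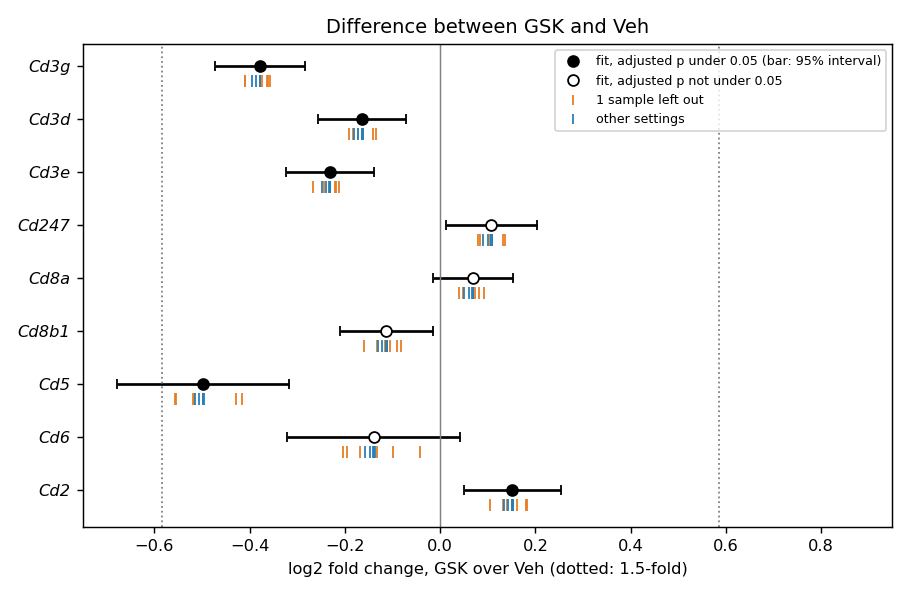
Log2 fold change of GSK over Veh (x axis) for each gene, with the 95% interval (bars), the 6 fits that leave out 1 sample (orange ticks) and the 6 other settings (blue ticks), where the dotted lines mark a 1.5-fold change. Filled circles (Cd3g, Cd3d, Cd3e, Cd5 and Cd2) passed an adjusted p of 0.05, and open circles (Cd247, Cd8a, Cd8b1 and Cd6) did not.

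The balance between the chains was compared within each sample, where the scaling between libraries cancels. These are ratios of CPM with no correction for length, so their shift between groups can be read but not which gene of a pair is higher. The ratio of Cd247 to Cd3e was 0.910, 0.903 and 0.860 in the Veh samples and 1.16, 1.12 and 1.11 in the GSK samples. The log2 ratio of Cd247 to Cd3e went from -0.17 ± 0.045 (SD, n = 3) in Veh to 0.17 ± 0.036 (SD, n = 3) in GSK. The log2 ratio of Cd3g to Cd3e was 0.58 ± 0.036 in Veh and 0.43 ± 0.027 in GSK, a difference of -0.15. Cd3d to Cd3e differed the least of the 5 ratios computed, with log2 ratios of 0.30 ± 0.027 in Veh and 0.37 ± 0.034 in GSK. Relative to Cd3e, Cd3g was thus lower and Cd3d slightly higher in GSK. The groups did not overlap in any of the 5 ratios, but 4 of these contain a gene whose own levels did not overlap, as was so for 46.7% of all genes tested, and the share of other gene pairs that separate the groups was not computed. The two-sided exact permutation test gave p = 0.1 for each (adjusted p = 0.1 over the 5), which is the smallest it can give with 3 samples against 3, so none could pass 0.05.

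The genes of the CD8 coreceptor lie on chromosome 6, Cd8b1 (chr6:71322788-71337492) 35934 bases before Cd8a (chr6:71373427-71379171), both on the plus strand and with no overlapping gene. Cd8a was at 533, 519 and 495 CPM in Veh and at 539, 555 and 529 CPM in GSK, so the groups overlapped. Its log2 fold change was 0.069 (SE 0.039, adjusted p = 0.20), with a 95% interval of -1.08 to 11.2%.

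Cd8b1, the gene of CD8β, was at 418, 395 and 404 CPM in Veh and at 357, 398 and 370 CPM in GSK. GSK replicate 2 reached the range of the Veh samples and the other two lay below it. The log2 fold change was -0.11 (SE 0.045, adjusted p = 0.072), which did not pass. Without GSK replicate 2 it was -0.16 (adjusted p = 0.0080), and with total counts in place of TMM scaling, a setting chosen after seeing the data, -0.13 (adjusted p = 0.043). Of the stretches of 31 bases in its transcripts, 8.4% also occur in transcripts of other genes, against 0 to 3.27% for the other members.

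The ratio of the CPM of Cd8b1 to that of Cd8a was 0.785, 0.760 and 0.816 in the Veh samples and 0.663, 0.717 and 0.699 in the GSK samples. Every GSK sample was lower than every Veh sample. The log2 ratio was -0.35 ± 0.051 (SD, n = 3) in Veh and -0.53 ± 0.057 (SD, n = 3) in GSK (p = 0.1, two-sided exact permutation test, the smallest possible). With each sample left out, the difference stayed between -0.21 and -0.15.

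**Figure D3:**
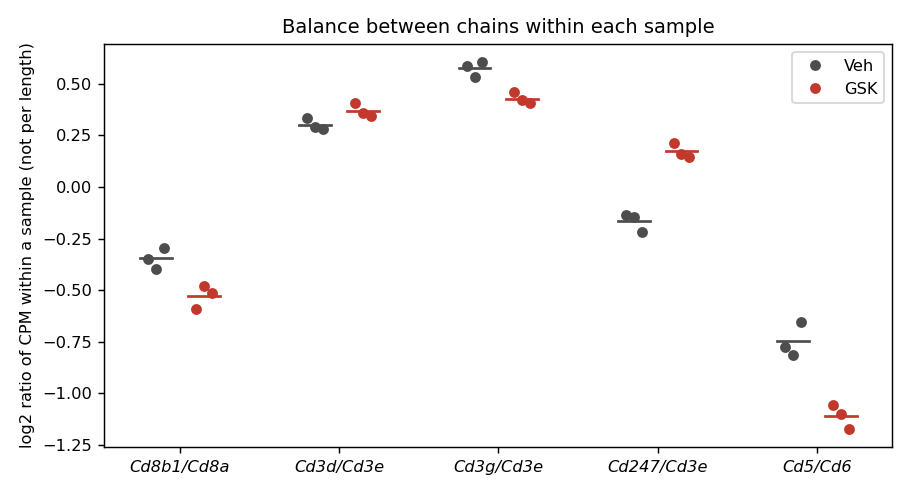
Log2 ratio of the CPM of 2 genes within each sample (y axis), for the 3 Veh samples (grey) and the 3 GSK samples (red), with horizontal bars at the group means. The ratios are not corrected for gene length, so only their shift between groups can be read, which was largest upward for Cd247/Cd3e (0.34) and largest downward for Cd5/Cd6 (-0.36).

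Cd5 and Cd6 encode related scavenger receptors and lie 50312 bases apart on chromosome 19, Cd5 at chr19:10718107-10739026 and Cd6 at chr19:10789339-10830062, both on the minus strand and with no overlapping gene. The level of CD5 on T cells is known to follow the strength of receptor signaling. Cd5 was at 94.6, 78.2 and 82.7 CPM in Veh and at 61.7, 65.0 and 54.2 CPM in GSK. Every GSK sample was lower than every Veh sample. Cd5 fell by 29.2% (95% interval -37.5 to -19.7%), a log2 fold change of -0.50 (SE 0.082, adjusted p = 0.0011). The interval reached past a 1.5-fold decrease, but the estimate stayed short of it in all 12 alternative fits (log2 fold changes from -0.56 to -0.42, adjusted p at most 0.0066).

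Cd6 was at 162, 138 and 130 CPM in Veh and at 128, 140 and 122 CPM in GSK. These groups overlapped, and Veh replicate 1 was the one sample above the rest. The log2 fold change was -0.14 (SE 0.081, adjusted p = 0.22), and -0.043 without Veh replicate 1. The 95% interval, from -20.0 to 2.92%, leaves a fall of up to that size undecided at this number of samples. The ratio of Cd5 to Cd6 was 0.584, 0.567 and 0.635 in Veh and 0.480, 0.466 and 0.444 in GSK, without overlap (p = 0.1, two-sided exact permutation test, the smallest possible). Cd5 was thus lower relative to its neighbour in all GSK samples.

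Cd2 (chr3:101275908-101287939, minus strand, no overlapping gene) was the one member that passed the test in the other direction. It was at 335, 318 and 314 CPM in Veh and at 342, 381 and 352 CPM in GSK. All GSK samples were above all Veh samples, with GSK replicate 1 close to Veh replicate 1. Cd2 rose by 11.1% (95% interval 3.49 to 19.2%), a log2 fold change of 0.15 (SE 0.047, adjusted p = 0.026). The call was lost without Veh replicate 2 (adjusted p = 0.085), without Veh replicate 3 (0.11) and without GSK replicate 2 (0.073), and also with the replicate block (0.056). The log2 fold change stayed between 0.10 and 0.18 in all 12 alternatives.

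To set the levels of different genes in order, they were expressed per length, in TPM, that is, CPM divided by transcript length and rescaled to an equal total in each sample, and their order depended on the length used. With the longest basic transcript of each gene in GENCODE M21, Cd3g was highest in Veh at 990 ± 40.5 TPM (SD, n = 3), followed by Cd2 (670 ± 27.1 TPM) and Cd8b1 (655 ± 22.5 TPM), which did not differ beyond their spread. Cd3d (518 ± 20.4 TPM), Cd3e (465 ± 10.1 TPM) and Cd8a (395 ± 16.5 TPM) came next, then Cd247 (205 ± 8.67 TPM), Cd6 (113 ± 13.8 TPM) and Cd5 (68.3 ± 7.14 TPM). In GSK, Cd3g at 746 ± 35.1 TPM and Cd2 at 728 ± 45.2 TPM no longer differed beyond their spread, and neither did Cd8a (406 ± 13.6 TPM) and Cd3e (388 ± 18.4 TPM). With all annotated exons of a gene joined, Cd8b1 was highest in Veh at 990 ± 33.9 TPM, Cd3g was at 468 ± 19.2 TPM, and Cd6 (65.1 ± 7.89 TPM) and Cd5 (62.6 ± 6.54 TPM) did not differ beyond their spread. Under both lengths Cd3e was above Cd247 in Veh, and Cd247 above both Cd6 and Cd5.

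Genes of the molecules that receive the signal of these chains moved both ways. Of 19 genes of proximal receptor signaling, 5 were higher, 2 lower and 12 did not pass, with a median log2 fold change of 0.059. Among all genes tested, 16.6% were higher and 15.5% lower at an adjusted p under 0.05, 32.1% in either direction. Lck, the kinase carried by CD8, rose from 840 ± 5.14 CPM to 916 ± 21.0 CPM (log2 change 0.13, SE 0.032, adjusted p = 0.011). The related kinase Fyn (log2 fold change 0.33), the adaptor Lat (0.23) and the exchange factor Vav1 (0.22) also rose, with adjusted p-values of 7.5e-04, 0.0034 and 0.0019. Zap70, which binds phosphorylated CD3 chains, was at 203 ± 5.37 CPM under vehicle and 206 ± 6.95 CPM under GSK (log2 difference 0.017, adjusted p = 0.80). Themis, a regulator of thymocyte receptor signaling, fell (log2 fold change -0.46, adjusted p = 3.1e-04), and so did the phospholipase gene Plcg1 (-0.26, adjusted p = 0.0032).

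Negative regulators moved in both directions. Of 19 genes, 3 were higher, 4 lower and 12 did not pass (median log2 fold change -0.085). The shares over all genes tested were 16.6% higher and 15.5% lower. The ubiquitin ligase gene Cblb (-0.42, adjusted p = 3.9e-04) and the adaptor gene Sla2 (-0.25, adjusted p = 0.0067) fell. Dok2, an adaptor that dampens receptor signaling (0.37, adjusted p = 2.1e-04), and Csk, the kinase that holds Lck inactive (0.21, adjusted p = 0.0011), rose. Dgka, named after its values were seen, was the one gene of this list past a fold change of 1.5 (-0.69, adjusted p = 0.020, up to 0.065 in the alternatives). Of the 6 tested ligands and partners of CD2, CD5 and CD6, the CD2-associated adaptor gene Cd2ap rose (0.33, adjusted p = 0.0011), the CD2 ligand gene Cd48 fell (-0.16, adjusted p = 0.0060), and 4 did not pass. Among these 4, Alcam, the ligand of CD6, was at 26.1 ± 2.46 CPM in the Veh samples and 28.7 ± 3.44 CPM in the GSK samples (adjusted p = 0.31). The CD2 ligand and CD2 itself thus differed in opposite directions.

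**Figure D4:**
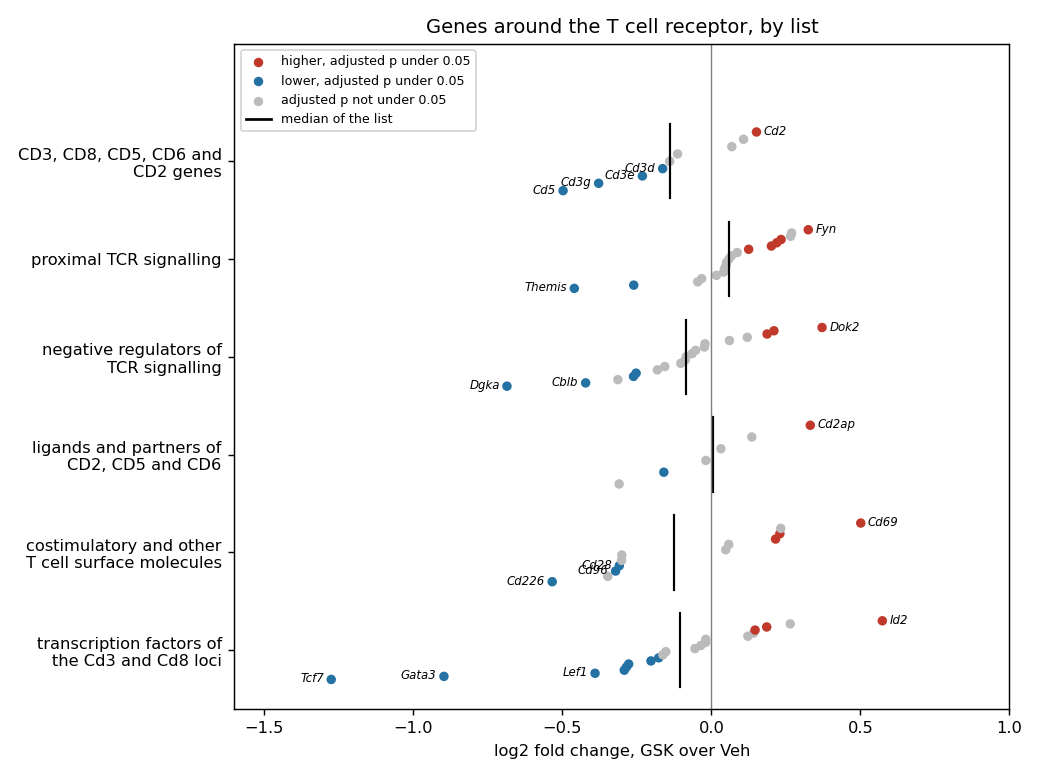
Log2 fold change of GSK over Veh (x axis) for the tested genes of 6 lists (rows), in red where higher and in blue where lower at an adjusted p under 0.05, in grey where not past it, with the list median as a black line. Of the 9 CD3, CD8, CD5, CD6 and CD2 genes 1 was higher and 4 lower, against 5 and 2 of the 19 proximal signaling genes and 3 and 8 of the 20 transcription factors. Among all genes tested, 16.6% were higher and 15.5% lower.

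Of 12 costimulatory and other surface molecules, 3 were higher, 3 lower and 6 did not pass (median log2 fold change -0.13). For this list and the next, the shares over all genes tested were 16.6% higher and 15.5% lower. Cd28, the costimulatory receptor that was engaged in the culture, fell (-0.31, adjusted p = 0.0020), as did Cd96 (-0.32, adjusted p = 1.9e-04). The activation marker Cd69 (0.50, adjusted p = 8.6e-05) and the T cell surface molecule Thy1 (0.23, adjusted p = 2.0e-04) rose. Of 20 transcription factors known to act at the Cd3 and Cd8 loci or in T cell identity, 8 were lower, 3 higher and 9 did not pass (median -0.10). Runx3, which keeps Cd8 on and Cd4 off in cytotoxic T cells, fell from 230 ± 6.37 CPM to 188 ± 12.3 CPM (-0.29, SE 0.051, adjusted p = 0.0010). Its counterpart Zbtb7b, the factor of the CD4 lineage, stood at 42.1 ± 6.31 CPM under vehicle and 37.6 ± 3.48 CPM under GSK (adjusted p = 0.27). Gata3 (-0.90, adjusted p = 6.0e-05) and Tcf7 (-1.28, adjusted p = 0.012, named after its values were seen) fell by more than 1.5-fold, and Lef1 (-0.39, adjusted p = 9.5e-04) by less. Id2, an inhibitor of E proteins, rose (0.57, adjusted p = 5.1e-06). No test compared one list with another. Of the genes named from these lists, other annotated genes overlap Lck, Fyn, Zap70, Lat, Plcg1 (Zhx3), Cblb, Dgka (Pmel), Dok2 (Xpo7), Alcam, Cd96, Zbtb7b, Gata3 and Tcf7 (Skp1), with the overlapping protein-coding gene in parentheses, so their reads may be shared if the counting ignored strand.

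Markers of other cells were read beside these results. Among all genes tested, 16.6% were higher and 15.5% lower at an adjusted p under 0.05. The 9 genes themselves marked the cells as CD8+ T cells, with 60280 counts of Cd8a over the 6 samples against 123 of Cd4. Of 4 CD4 and regulatory T cell markers, 1 (Cd40lg) was higher, and their summed level was 43.9 to 53.2 CPM in Veh and 40.7 to 45.9 CPM in GSK. Of 6 NK cell markers 4 were tested and 3 were higher (Klrk1, Klre1 and Tyrobp), with a summed level of 132 to 153 CPM in Veh and 195 to 203 CPM in GSK. Most of that sum was Klrk1, which CD8+ T cells also express, while the NK-defining Ncr1 had 1 count in all 6 samples. Tyrobp had a mean of only 11.5 counts per sample (0.322 ± 0.246 CPM in Veh and 0.878 ± 0.193 CPM in GSK, adjusted p = 0.047). It passed in 4 of the 12 fits that tested it, with an adjusted p of up to 0.16. Of the B cell markers, 2 of 4 tested (Cd22 and Cd74) were higher and 1 (H2-Ab1) lower (33.3 to 34.4 CPM in Veh and 27.6 to 39.2 CPM in GSK), with 22 counts of Ms4a1 in all. Of the myeloid markers, 1 of 5 tested (again Tyrobp) was higher and 1 (Fcgr3) lower (at most 16.8 CPM in Veh and 14.7 CPM in GSK), with 2 counts of Adgre1. Of the dendritic cell markers, some of whose cells carry CD8α, 1 of 3 tested was lower (14.6 to 17.1 and 14.8 to 18.1 CPM), with 2 counts of Clec9a. The erythroid markers were too low to be tested, at no more than 0.365 CPM in sum. Fcer1g, whose product resembles the ζ chain and can stand in for it, was at 2.74 ± 1.07 CPM under vehicle and 2.52 ± 0.344 CPM under GSK (adjusted p = 0.78). Of the other ITAM and DAP adaptors, 1 of 4 tested was higher, the same Tyrobp as in the NK and myeloid lists. The part of other cells in the differences of Cd5, Cd2 and the CD3 genes was not tested.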

How the data were processed

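RNA was measured in 3 GSK and 3 Veh cultures. The authors trimmed the reads with Trimmomatic, mapped them to GRCm38 with HISAT2 (version 2.1.0) and counted them per gene with HTSeq (version 0.11.2), and the deposited values are these whole counts, not normalized. The annotation release and the strand setting of the counting are not given in the sources used here, so genes in overlapping regions are uncertain. No column holds the authors' own comparisons.

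From the deposited counts, groups were taken from the sample titles and compared by the robust quasi-likelihood test of edgeR (version 4.0.16 under R 4.3.3), with TMM scaling and the filterByExpr filter. All single-gene p-values are from this test, with Benjamini-Hochberg adjustment over all genes tested. Standard errors and 95% intervals were derived from its test statistic, gene by gene and without adjustment over all genes. Calls at an adjusted p under 0.05 were counted, with and without the study's fold change of 1.5. Ratios within samples were compared by a two-sided exact permutation test. The alternatives were DESeq2 (version 1.42.0), no filter on low counts, a filter of 5 CPM in 3 samples, size factors by RLE, the replicate block, leaving out each sample, and total count scaling, the last chosen after seeing the data.

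The members, gene lists and tests were chosen with earlier results of these data known. Named in addition to the members were up to 4 genes with the smallest p per list at an adjusted p under 0.05, Lck, Zap70, Lat, Cd4, Cd28, Cd48, Alcam, Runx3, Zbtb7b and Fcer1g, the nearest tested protein-coding genes of each locus, and the 3 genes most correlated with Cd3e and with Cd8a. Coordinates came from RefSeq genes of GRCm38.p6 matched by Entrez identifier, start regions from RefSeq for 6 of the 9 members, and strands and lengths from GENCODE M21, which gave lengths for 15749 (joined exons) and 15514 (longest transcript) of 16281 symbols. Cells of 3 separate mice were used, and the sources leave it unsaid if same-numbered Veh and GSK cultures share a mouse. No pair of replicates differed as little as sampling noise would give (chi-square per degree of freedom 4.08 to 9.42). Counts between 18288447 and 19846720 per sample put each member at 1039 counts or more. How much of a member's spread came from depth was not computed.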

Additional observations from a re-analysis of the deposited data

How the results depend on the processing

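Every member kept its direction under all 12 alternatives. Cd3g, Cd3e and Cd5 stayed past an adjusted p of 0.05 in all of them, Cd3d in all but the one without Veh replicate 1, and Cd247, Cd8a and Cd6 in none. The count of lower members, 4 in the main fit, was 3 to 5 with 1 sample left out, and that of higher members, 1 in the main fit, was 0 to 1 with 1 sample left out and 0 with the replicate block. The cause was not tested. With a filter of 5 CPM, 163 genes were called higher and 300 lower in place of 260 and 479. That filter left 9645 genes to test in place of 11698, and the reason for the smaller counts was not tested. With 1 sample left out, 224 to 291 genes were called higher and 403 to 547 lower. Lower negative regulators then numbered 3 to 7 (7 without GSK replicate 2), lower ligands and partners 1 to 2 (2 without Veh replicate 1), lower surface molecules 3 to 5 (5 without GSK replicate 2) and higher transcription factors 1 to 3 (1 without Veh replicate 1 and 1 without Veh replicate 2). Whether same-numbered samples share a mouse is not known, and the counts gave no clear sign of pairing, as the deviations of same-numbered samples correlated at -0.05, -0.08 and 0.16 across genes and 1 of 3 correlated best with its own number. With the replicate block, 253 genes were called higher and 447 lower, and among the members it changed the call of Cd2 alone. The ratios within samples were recomputed with each sample left out and with a prior count of 2, and moved by less than their SD in each. Scaling between libraries cancels in them, so size factors by RLE could not change them. The other settings were not run for the ratios. Total count scaling shifted the median of all genes to -0.02.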

Other observations

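The genes next to these loci did not all follow them. Ube4a, 3956 bases from Cd3g, was lower (log2 fold change -0.18, adjusted p = 0.017 by edgeR) in a region with 2 overlapping predicted genes, while Mpzl2, 32680 bases beyond Cd3e, was near 1 CPM and did not pass (adjusted p = 0.37). Beside the Cd8 genes, Rmnd5a was lower (-0.19, adjusted p = 0.015) and Krcc1, which a microRNA gene overlaps, did not pass (adjusted p = 0.62). Beside Cd6, Slc15a3, which encodes a lysosomal peptide and histidine transporter, rose from 1.38 ± 0.342 CPM (SD, n = 3) to 4.70 ± 0.690 CPM (log2 fold change 1.77, adjusted p = 2.0e-04), in a region that Tmem132a overlaps, while Vps37c beside Cd5 did not pass (0.090, adjusted p = 0.39). The nearest tested gene below Cd2, Ptgfrn at 165162 bases, which a predicted gene overlaps, rose from 16.6 ± 2.43 to 32.5 ± 1.73 CPM (0.97, adjusted p = 2.6e-05), and Igsf3 on the other side did not pass (adjusted p = 0.25). Creg1, 4642 bases from Cd247, and Gpa33, 259067 bases away on the other side, were the nearest tested protein-coding genes that do not overlap Cd247, and they did not pass either (adjusted p = 0.38 and 0.12).

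Over the 6 samples, the genes whose log2 CPM followed that of Cd3e most closely were H2az2, Atp2a3 and Kifc2 (Pearson r of 0.998 for H2az2 and 0.997 for Kifc2), out of 10176 genes compared, of which 629 had an r over 0.95. For Cd8a they were Psme2b (0.996), Pigl (0.993) and Usp18 (0.988), and 32 genes had an r over 0.95. These 6 points share 2 treatment groups and the libraries' scaling, so the correlations are a description of these samples.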
